A study of Mus musculus with 9 samples.

Results

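The genes described here are 40 genes of the unfolded protein response, of amino acid stress and of serine and proline synthesis, measured by RNA sequencing in BG2 cells, a line grown from a mouse mammary tumour. They were chosen by name, as the rows of the count table whose Entrez identifiers match their symbols. All 40 were found among the 24594 genes of the table, and 39 of them were among the 13928 genes with enough counts to test. They were arranged by role into 4 sensors of the endoplasmic reticulum (ER), 13 ER chaperones and folding enzymes, 4 genes of ER-associated degradation, 5 stress transcription factors, 6 stress feedback targets of Atf4 and 8 amino acid synthesis targets of Atf4.

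Cells secrete and display proteins that fold in the ER. When unfolded proteins accumulate there, the membrane sensors Ire1 (gene Ern1), Perk (Eif2ak3) and Atf6 raise the capacity for folding and for disposal. Ire1 splices the messenger RNA of Xbp1, and spliced Xbp1 and cleaved Atf6 switch on genes of chaperones and of ER-associated degradation. Perk phosphorylates the translation factor eIF2, which lowers protein synthesis but favours translation of Atf4. Other eIF2 kinases respond to lack of amino acids or to further stresses and act on the same factor, so that Atf4 and its targets, among them enzymes of asparagine, serine and proline synthesis, form the integrated stress response. Splicing, phosphorylation, cleavage and translation are not visible in gene-level counts, which measure only how much messenger RNA each gene had.

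All 9 libraries came from epithelial cells of the MMTV-NeuIresCre strain, in which the MMTV promoter drives the oncogene Neu together with Cre in mammary epithelium. The control was the wild-type line, sequenced as a bulk population, and its library names hold the abbreviation NTC. The other libraries came from 2 lines with a CRISPR knockout of Sox10, a transcription factor, made with guides against exon 3 and each expanded as 1 clone from the edited population. Each group had 3 technical replicates, so the tests see only the spread among libraries of 1 line. Loss of Sox10 and growth from a single cell cannot be told apart in a comparison of a clone with a population. Both clones were set against the same control libraries. In bulk RNA, fewer cells of a type and less RNA per cell cannot be told apart.

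The libraries held 65805296 to 83282841 counts. Sox10 had 16660, 21437 and 26038 counts in the control libraries, 0, 6 and 0 in those of clone 1, and 0, 2 and 2 in those of clone 2. Differences from the control ran through the whole transcriptome, and at an adjusted p under 0.05 in edgeR's quasi-likelihood test 76.5% of the tested genes differed in clone 1 and 74.4% in clone 2. The median change of all tested genes was 0.0025 in clone 1 and -0.0027 in clone 2 on the log2 scale. Whole chromosomes had shifted medians, from -0.49 to 0.61 in clone 1 and from -0.53 to 0.48 in clone 2, and the plot of fold changes marks the median of each gene's own chromosome. The part of these shifts in the results below was not tested. In each group, replicate 1 was less like the other replicates than these were like each other. The 10 epithelial markers summed to 6582 to 7820 CPM (counts relative to the library total, scaled by TMM) in the control libraries, 1200.1 to 1357 CPM in clone 1 and 1462 to 1643 CPM in clone 2, and all 10 fell in both clones. Of all tested genes, 38.6% fell in clone 1 and 37.1% in clone 2. Cldn3 was at 0 counts in clone 1, and Epcam and Esrp1 were at 0 in clone 2. They, like Cldn4 and Cldn7, were almost undetected in both clones and passed the count filter only through the control, so their fall is a description alone. The 10 fibroblast markers summed to 377 to 414 CPM, 1101 to 1176 CPM and 964 to 1162 CPM in the same order, while Lum and Thy1 were at 0 counts in every group. Of the 7 tested, 7 were higher in clone 1 and 6 in clone 2, beside 37.9% and 37.3% of all tested genes. One of the 7, Col3a1, was at 0 counts in the control and passed the count filter only through clone 1, so its rise there is a description alone. Most of the fibroblast sum was Fbln2, with means of 366, 903 and 903 CPM, while Col1a1 was at 1.45, 2.95 and 2.77 CPM. Endothelial markers summed to at most 0.108, 17.3 and 0.953 CPM and immune markers to at most 12.4, 11.4 and 46.0 CPM. Single genes again made most of the higher sums, Kdr with a mean of 16.2 CPM in clone 1 and Cd68 with 38.6 CPM in clone 2. The part of these marker changes in the results below was not tested.

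Most of the stress genes were higher in both knockout clones than in the wild-type population. Of the 39 tested, 32 rose and 4 fell in clone 1, where 37.9% of all tested genes rose and 38.6% fell. In clone 2, 33 rose and 4 fell, beside 37.3% and 37.1% of all tested genes. The median change of the 39 was 0.64 in clone 1 and 0.67 in clone 2. The ER arm and the Atf4 arm of the set were also counted apart. The 21 genes of sensing, folding and degradation in the ER had 20 risen in clone 1 and 21 in clone 2, with medians of 0.89 and 0.80. None of the 21 fell in either clone, and this count was also 0 at an unadjusted p under 0.05 and in DESeq2. The libraries of all 21 lay apart from those of the control in both clones, beside 77.9% of all tested genes in clone 1 and 76.0% in clone 2. Among the 13 tested targets of Atf4, 8 rose and 3 fell in each clone, with medians of 0.30 in clone 1 and 0.60 in clone 2. That the 2 arms differed from each other was not tested. The 8 amino acid synthesis targets had 6 and 7 risen in clones 1 and 2, and the 5 tested feedback targets 2 and 1. In the wider lists below, 73.5% and 79.4% of other Atf4 targets rose. Of other ER folding genes 62.5% rose in each clone, and of other ER degradation and translocation genes 75.9% and 58.6%. These lists did not repeat the contrast of the set. Of the 39 genes, 11 rose and 3 fell by at least 2-fold with a call in clone 1, beside 16.3% of all tested genes in each direction. In clone 2, 8 of the 39 rose and 1 fell by that much, beside 15.1% and 15.4%. Against a minimum change of 1 on the log2 scale, tested with edgeR's glmTreat, 7 rose and 2 fell in clone 1 and 7 and 1 in clone 2, where 25.7% and 24.3% of all tested genes were called in either direction.

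**Figure D1:**
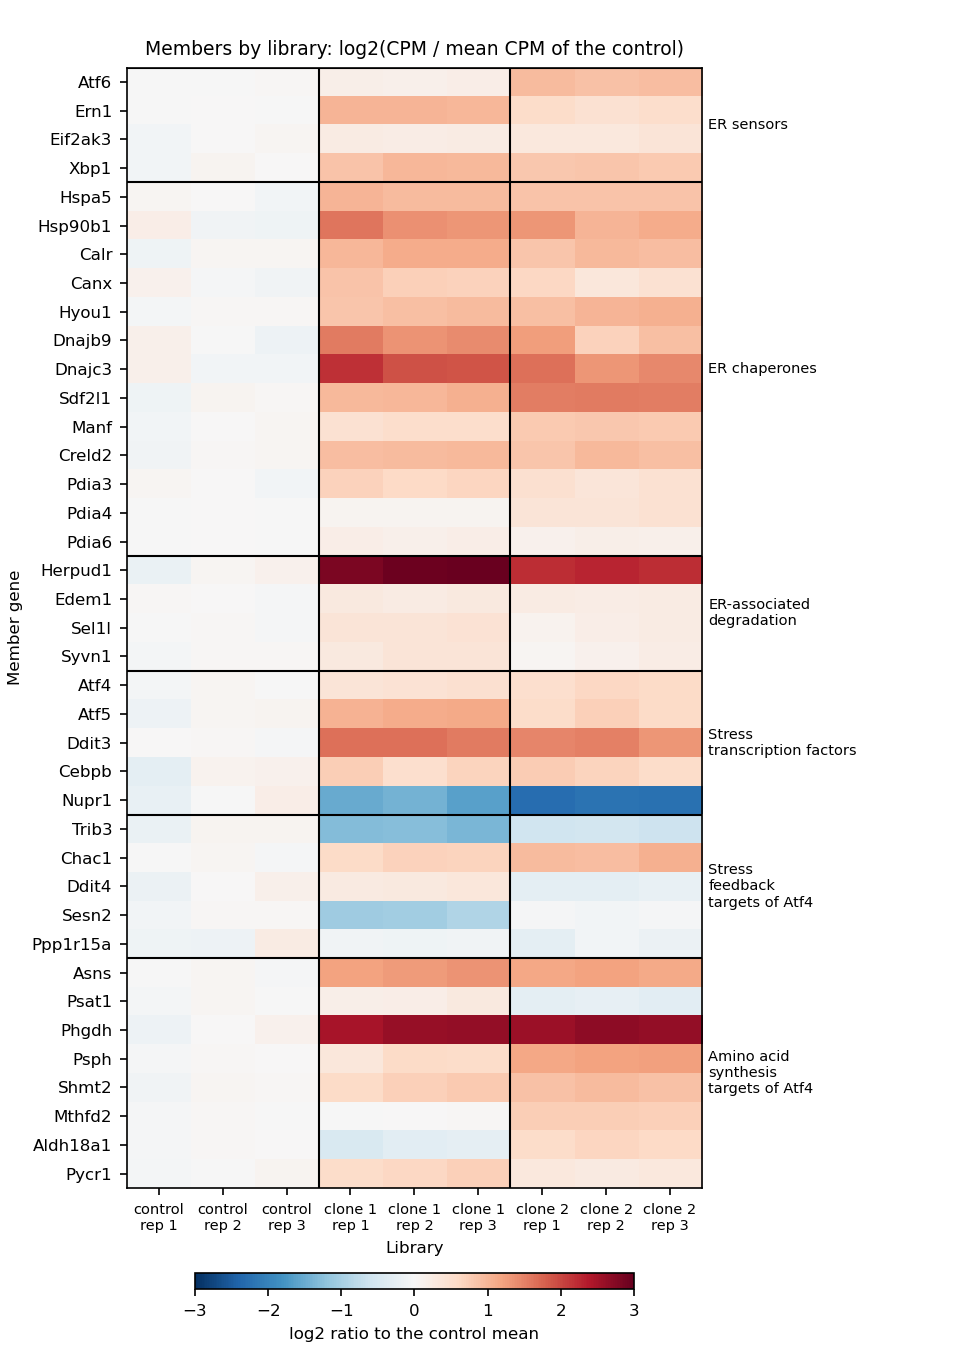
Each row is 1 of the 39 tested genes, grouped by role, each column is 1 library, and the colour is the log2 ratio of its CPM to the mean CPM of the control libraries (red higher, blue lower). Herpud1 and Phgdh are the reddest rows in all 6 clone libraries, Nupr1 is the bluest, and the rows of the ER sensors and chaperones are red or pale red throughout the clones.

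All 4 sensors of the ER rose in both clones, by 0.18 to 1.01 on the log2 scale. Xbp1, the transcription factor whose messenger RNA is spliced by Ire1, stood at 92.2, 103 and 99.6 CPM in the control libraries. It reached 178, 195 and 192 CPM in the libraries of clone 1 and 172, 174 and 168 CPM in those of clone 2. Every clone library lay above every control library. Xbp1 thus rose 1.91-fold in clone 1 (log2 change 0.94 ± 0.05 SE, adjusted p 2.55e-08) and 1.74-fold in clone 2 (0.80 ± 0.05, adjusted p 1.02e-07). Ern1, the kinase and nuclease Ire1 itself, had 43.5, 44.2 and 43.7 CPM in the control libraries, 88.1, 89.2 and 87.9 in the clone 1 libraries and 63.8, 60.3 and 63.4 in the clone 2 libraries. The 3 groups did not overlap and clone 1 was highest. Its log2 change was 1.01 ± 0.05 in clone 1 (adjusted p 2.97e-09) and 0.51 ± 0.05 in clone 2 (adjusted p 1.17e-06).

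Atf6, the sensor cleaved in the Golgi to release a transcription factor, had the opposite order of the clones. Its control libraries held 104, 104 and 107 CPM, the libraries of clone 1 119, 118 and 121 CPM and the libraries of clone 2 202, 193 and 199 CPM. Clone 2 lay far above the other groups, which were close to each other without overlapping. The rise was 0.18 ± 0.04 in clone 1 (adjusted p 0.00204) and 0.92 ± 0.04 in clone 2 (adjusted p 2.9e-09), and Atf6 lies on chromosome 1, whose median gene changed by -0.29 and 0.05. Eif2ak3, the kinase Perk, was measured at 37.3, 39.5 and 41.1 CPM in control libraries. Clone 1 had 46.9, 45.9 and 46.8 CPM of it and clone 2 had 48.8, 48.9 and 51.5 CPM. The clone libraries were all above the control libraries by a small margin, with changes of 0.24 ± 0.05 (adjusted p 0.00166) and 0.34 ± 0.05 (adjusted p 0.000156).

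The chaperones and folding enzymes of the ER lumen rose as a group. In clone 1, 12 of 13 rose with a median change of 0.94, and in clone 2 all 13 rose with a median of 0.90. The highest in every group per exon length were Calr, Pdia3 and Hspa5. Hspa5 encodes BiP, the chief Hsp70 of the ER, which also binds the sensors in their resting state. Its level per length was 197 ± 10.9 CPM per kb in the control, 387 ± 10.4 in clone 1 and 358 ± 1.93 in clone 2 (SD, n = 3 each). In fold terms Hspa5 rose 1.96-fold (log2 change 0.97 ± 0.05, adjusted p 1.57e-08) and 1.82-fold (0.86 ± 0.05, adjusted p 4.64e-08). Calr, the lectin chaperone calreticulin, rose by 1.08 ± 0.07 in clone 1 (adjusted p 3.89e-08) and by 0.91 ± 0.07 in clone 2 (adjusted p 1.74e-07). Canx, its membrane-bound partner calnexin, rose by 0.76 ± 0.08 and 0.48 ± 0.08.

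Dnajc3, an ER co-chaperone also called p58IPK, changed most among the chaperones of clone 1. It was present at 49.6, 42.1 and 42.0 CPM in the control libraries, 202, 168 and 166 in the clone 1 libraries and 140.2, 112 and 121 in the clone 2 libraries. The groups did not overlap, and replicate 1 was the highest library of each. Dnajc3 rose 4.01-fold in clone 1 (log2 change 2.00 ± 0.11, adjusted p 1.13e-08) and 2.79-fold in clone 2 (1.48 ± 0.11, adjusted p 1.48e-07). Chromosome 14, on which it lies, had medians of 0.61 and 0.48. Hsp90b1, the Hsp90 of the ER (Grp94), numbered 539, 439 and 432 CPM in the control libraries. The values were 1434, 1214 and 1185 CPM in clone 1 and 1179, 954 and 1022 CPM in clone 2. Replicate 1 was again highest in each group, and the lowest clone library exceeded the highest control library. The change was 1.44 ± 0.11 in clone 1 (adjusted p 2.59e-07) and 1.16 ± 0.11 in clone 2 (adjusted p 1.68e-06).

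Sdf2l1, which keeps BiP and its substrates soluble, was the chaperone with the largest rise in clone 2. Control libraries had 35.2, 40.3 and 39.2 CPM, clone 1 libraries 74.4, 76.4 and 79.5 CPM and clone 2 libraries 112, 113 and 111 CPM. The 3 groups were fully separate, clone 2 above clone 1 above the control. Its changes were 1.01 ± 0.06 (adjusted p 2.3e-08) and 1.55 ± 0.06 (adjusted p 6.06e-10). Dnajb9, a BiP co-chaperone that restrains Ire1, had the lowest level per exon length of the 39 genes in the control and in clone 2, and stood at 7.37, 6.53 and 5.89 CPM in the control libraries. Clone 1 libraries had 19.4, 16.8 and 17.7 CPM of it and clone 2 libraries 15.8, 10.6 and 12.3 CPM. The groups did not overlap. It rose by 1.45 ± 0.14 in clone 1 (adjusted p 2.75e-06) and by 0.97 ± 0.14 in clone 2 (adjusted p 7.85e-05), on chromosome 12 with medians of -0.38 and -0.51.

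The remaining folding genes rose by 1.00 or less on the log2 scale. Hyou1, an Hsp110-type chaperone that exchanges the nucleotide of BiP, rose by 0.89 and 1.00. Creld2, a secreted and ER-resident protein with disulfide isomerase activity, rose by 0.94 and 0.90, and Manf, a secreted stress factor of the ER, by 0.50 and 0.79. The protein disulfide isomerases had changes of at most 0.65. Pdia3, which works with calnexin and calreticulin on glycoproteins, rose by 0.65 and 0.43, and Pdia6 by 0.18 and 0.14. For Pdia6 in clone 2 the call was lost without replicate 2 of clone 2 (log2 change 0.103, adjusted p 0.1002), and over 17 alternatives its adjusted p ran from 0.00113 to 0.1002. Pdia4 was the only one of the 13 without a call in clone 1, at 0.09 ± 0.04 (adjusted p 0.0695), though its control and clone 1 libraries did not overlap and a fit with the replicate number as a block called it (adjusted p 0.0353, the lowest of 17 alternatives, with 0.2236 the highest). In clone 2 it rose by 0.41 ± 0.04 (adjusted p 2.57e-06). All 13 chaperones lay above the median of their own chromosome in both clones, by 0.33 to 1.83 in clone 1 and 0.31 to 1.48 in clone 2.

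The promoters of many of these genes hold the ER stress response element (ERSE), the site at which Atf6 and Xbp1 bind next to the factor NF-Y. It was searched for as CCAAT and CCACG with any 9 bases between them, on both strands, in RefSeq windows from 250 bases before to 50 bases after each gene's start (GRCm38.p6). Windows were found for 37 of the 40 genes, Atf6, Hyou1 and Manf being the others. The letters were present in 7 of the 11 chaperones with a window (63.6%), in 1 of 4 degradation genes, and in none of the other 22 genes. Over all genes with a window, 37 of 27025 (0.137%) held it. The chaperone and degradation genes have long been known to carry the element, so the count describes them and was given no test. The copies are shown because they belong to the genes that rose together, with the motif in capitals. They read 5′ to 3′ on the strand of the gene, on which a reversed copy shows CGTGG first and ATTGG last.
Hspa5, chr2:34772020-34772048, plus strand: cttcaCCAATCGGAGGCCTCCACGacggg
Calr, chr8:84847070-84847098, minus strand: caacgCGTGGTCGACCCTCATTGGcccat
Canx, chr11:50325795-50325823, minus strand: attgaCCAATCACCACGCTCCACGaagaa
Dnajc3, chr14:118937822-118937850, plus strand: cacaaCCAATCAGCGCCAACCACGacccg
Creld2, chr15:88819515-88819543, plus strand: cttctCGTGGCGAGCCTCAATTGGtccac
Pdia6, chr12:17266486-17266514, plus strand: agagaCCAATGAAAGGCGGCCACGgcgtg
Syvn1, chr19:6046527-6046555, plus strand: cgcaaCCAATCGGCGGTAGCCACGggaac
Hsp90b1, chr10:86705528-86705661, minus strand, with 2 copies: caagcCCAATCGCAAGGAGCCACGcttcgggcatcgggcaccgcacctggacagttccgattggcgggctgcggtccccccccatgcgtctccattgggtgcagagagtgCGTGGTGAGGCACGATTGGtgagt
Between the fixed ends the 9 bases differ from gene to gene. Genes that share the element did not share a size of change: Dnajc3 and Hsp90b1 rose by more than 1 on the log2 scale in both clones, while Pdia6 and Syvn1, with the same fixed letters, rose by less than 0.4 in each. Dnajb9 and Sdf2l1 rose by about 1 or more without these letters in the window, which says nothing on sites outside it or with other spacing. The core of the Xbp1 site, TGACGTGG, was in none of the 37 windows and in 0.714% of all genes.

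**Figure D2:**
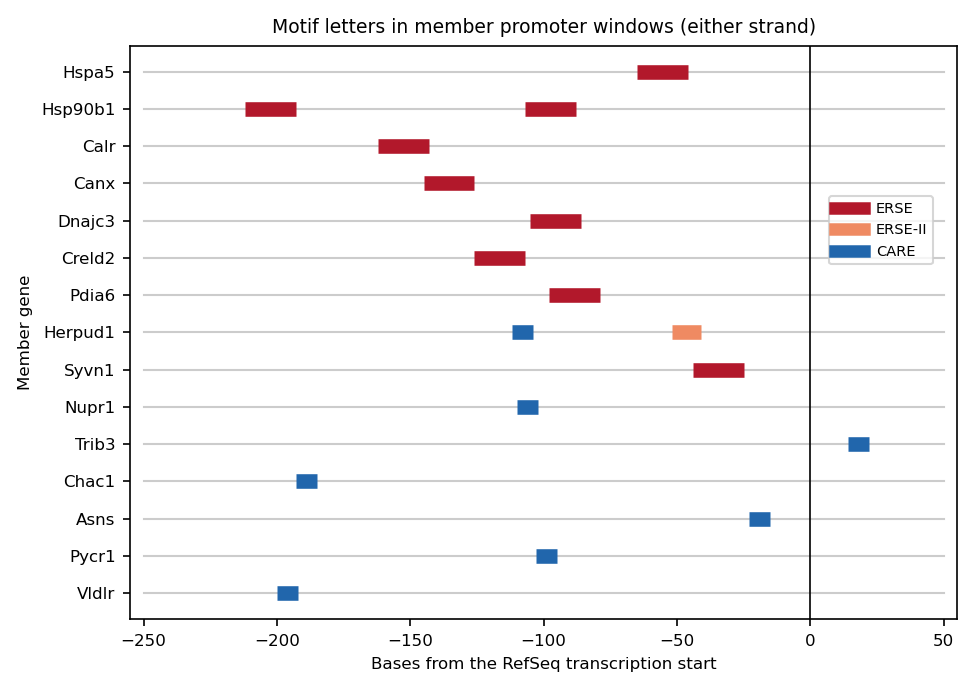
Each line is the promoter window of 1 gene that holds a searched motif, from 250 bases before to 50 after the RefSeq start (x axis, bases), and blocks mark the motif on either strand: ERSE in red, its variant ERSE-II in orange, the Atf4 motif CARE in blue. The chaperones carry red blocks between 212 and 46 bases before the start, Herpud1 carries a blue and an orange block, and the 6 genes listed after Syvn1 carry a blue block alone.

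Genes of ER-associated degradation also rose, 4 of 4 in each clone, but only Herpud1 rose strongly. Herpud1, a membrane protein that organises the degradation complex, had the largest change of all 39 genes in clone 1. It was at 36.0, 43.0 and 45.6 CPM in the control libraries, 294, 318 and 326 in the clone 1 libraries and 193, 201 and 192 in the clone 2 libraries. The lowest clone library was several times the highest control library, and clone 1 was above clone 2. Herpud1 rose 7.52-fold in clone 1 (log2 change 2.91 ± 0.08, adjusted p 5.81e-11) and 4.7-fold in clone 2 (2.23 ± 0.08, adjusted p 4.33e-10). It lies on chromosome 8 (94386438 to 94395377 on the plus strand, GRCm38), where the median gene changed by 0.35 and 0.14. Its promoter was the one window of the set with motifs of both arms. A reversed copy of the Atf4 motif lies 112 bases before the start, and the ERSE-II letters, ATTGG and CCACG with 1 base between, lie 52 bases before it. The stretch with both is shown with the motifs in capitals.
Herpud1, chr8:94386312-94386392, plus strand: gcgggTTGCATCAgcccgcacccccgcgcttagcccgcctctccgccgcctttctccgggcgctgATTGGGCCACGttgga
ERSE-II was found in no other of the 37 windows and in 12 genes (0.0444%) overall.

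The other 3 degradation genes rose by little. Sel1l, the adaptor of the degradation ligase, was at 122, 124 and 119.9 CPM in the control libraries, 158, 158 and 164 in the clone 1 libraries and 132, 139 and 146 in the clone 2 libraries. The clones were above the control without overlap, at 0.39 ± 0.05 (adjusted p 1.53e-05) and 0.19 ± 0.05 (adjusted p 0.00406). Edem1, which extracts misfolded glycoproteins from the folding cycle, went from 97.5, 96.4 and 92.4 CPM to 116, 114 and 116 CPM in clone 1 and 113, 111 and 113 CPM in clone 2. All clone libraries were higher, by 0.28 ± 0.04 (adjusted p 0.000106) and 0.24 ± 0.04 (adjusted p 0.000355). Syvn1, the ligase Hrd1, had 85.7, 91.2 and 91.7 CPM in the control libraries, 110.5, 116 and 117 in the clone 1 libraries and 93.6, 98.2 and 104 in the clone 2 libraries. Clone 2 was barely above the control. The rise of Syvn1 was 0.36 ± 0.05 in clone 1 (adjusted p 9.27e-05) and 0.14 ± 0.05 in clone 2 (adjusted p 0.0351), and 9 of 17 alternatives lost the second call, which was 0.0863 (adjusted p 0.2201) without replicate 1 of the control, over a range of adjusted p from 0.00242 to 0.2201.

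**Figure D3:**
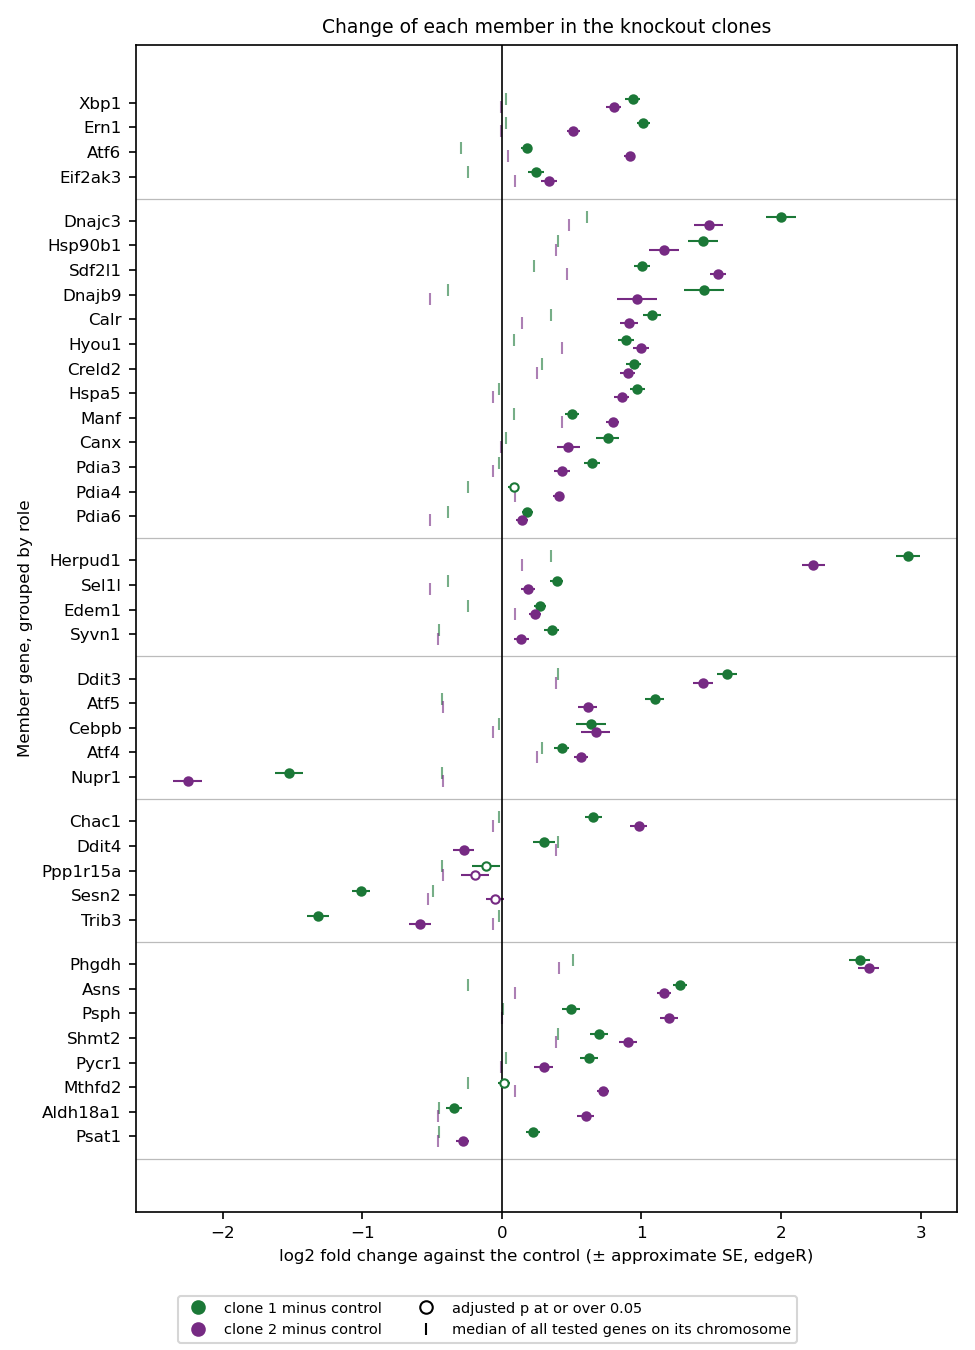
Points give the log2 fold change of each gene in clone 1 (green) and clone 2 (purple) with bars of 1 approximate SE, open points have an adjusted p at or over 0.05, and short ticks mark the median of all tested genes on the same chromosome. All 21 genes of the ER arm lie right of 0, Herpud1 and Phgdh lie beyond 2 in both clones, and Nupr1 and Trib3 lie left of 0 in both.

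The stress transcription factors split. Atf4, Atf5, Ddit3 and Cebpb rose in both clones and Nupr1 fell in both. Atf4 itself rose by 0.43 ± 0.05 in clone 1 (adjusted p 1.35e-05) and by 0.57 ± 0.05 in clone 2 (adjusted p 1.23e-06), from 288 ± 13.1 CPM in the control to 388 ± 13.6 and 427 ± 15.6 CPM (SD, n = 3). Ddit3, which encodes the death-associated factor Chop, was low in the control at 8.94, 9.03 and 8.58 CPM. Clone 1 libraries had 27.6, 27.6 and 25.9 CPM and clone 2 libraries 24.5, 25.3 and 22.3 CPM. No clone library came near the control range. The rise was 3.06-fold in clone 1 (log2 change 1.61 ± 0.07, adjusted p 2.43e-09) and 2.72-fold in clone 2 (1.44 ± 0.07, adjusted p 6.58e-09), on chromosome 10 with medians of 0.41 and 0.39. Atf5, another factor whose translation rises under stress, was measured at 102, 119 and 121 CPM in the control libraries, 233, 245 and 251 in the clone 1 libraries and 166, 186 and 171 in the clone 2 libraries. The groups were separate, with clone 1 highest, and the changes were 1.09 ± 0.07 (adjusted p 6.09e-08) and 0.61 ± 0.07 (adjusted p 9.08e-06).

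Cebpb, a partner of Atf4 and Chop on DNA, had 136, 179.9 and 183 CPM in the control libraries, 278, 237 and 262 in the clone 1 libraries and 284, 266 and 245 in the clone 2 libraries. The clones overlapped each other but not the control. Cebpb rose by 0.64 ± 0.11 (adjusted p 0.000195) and 0.67 ± 0.11 (adjusted p 0.000138), but 312 bases of its exons overlap Tmem189 on the other strand and whether the counting used strand is not stated in the labels. Nupr1, a small stress-induced chromatin protein, was the only stress factor that fell. Its values were 97.2, 114 and 131 CPM in the control libraries, 39.8, 42.6 and 36.6 in the clone 1 libraries and 23.5, 24.4 and 24.0 in the clone 2 libraries. Each clone library was below every control library, and clone 2 was below clone 1. Nupr1 was 2.88-fold lower in clone 1 (log2 change -1.52 ± 0.10, adjusted p 6.08e-08) and 4.76-fold lower in clone 2 (-2.25 ± 0.10, adjusted p 2.66e-09). The median of chromosome 7, where it lies, was -0.43 and -0.42.

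The stress feedback targets of Atf4 went in both directions. Of the 5 tested, clone 1 had 2 that rose and 2 that fell, and clone 2 had 1 and 2. Beside them, 37.9% of all tested genes rose and 38.6% fell in clone 1, and 37.3% and 37.1% in clone 2. With only 5 genes, no statement on a difference from these shares can be made. Vldlr, a lipoprotein receptor, was too low to test, with 6 counts in replicate 3 of the control and 0 in the other libraries. Chac1, which degrades glutathione, was the only one of the 5 that rose in both. It was at 19.8, 20.8 and 19.7 CPM in the control libraries, 30.2, 32.7 and 32.1 in the clone 1 libraries and 38.9, 38.4 and 41.8 in the clone 2 libraries. The groups were separate and clone 2 was highest, with changes of 0.66 ± 0.06 (adjusted p 1.77e-06) and 0.98 ± 0.06 (adjusted p 5.37e-08). Trib3, a pseudokinase that is induced by Atf4 and Chop and limits them, fell in both. Control libraries held 49.0, 59.7 and 59.7 CPM of it, clone 1 libraries 22.6, 23.2 and 21.7 CPM and clone 2 libraries 37.3, 38.2 and 36.6 CPM. All clone libraries were below the control, clone 1 lowest, and the changes were -1.32 ± 0.08 (adjusted p 3.05e-08) and -0.59 ± 0.08 (adjusted p 2.97e-05).

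Sesn2, a leucine-binding brake on the growth kinase mTORC1, fell in clone 1 alone by the test, and the clones differed directly. It had 29.1, 31.3 and 31.6 CPM in the control libraries, 14.6, 14.9 and 16.3 in the clone 1 libraries and 29.8, 29.1 and 30.01 in the clone 2 libraries. Clone 1 was well below both other groups, which overlapped. The change was -1.01 ± 0.07 in clone 1 (adjusted p 7.14e-08) and -0.05 ± 0.06 in clone 2 (adjusted p 0.5), and clone 2 exceeded clone 1 by 0.96 ± 0.07 (adjusted p 4.22e-07). Sesn2 lies on chromosome 4, with medians of -0.49 and -0.53. Ddit4, another inhibitor of mTORC1, stood at 39.2, 44.4 and 49.4 CPM in the control libraries, 53.8, 54.0 and 56.3 in the clone 1 libraries and 36.1, 35.9 and 38.0 in the clone 2 libraries. The 3 groups did not overlap, with the control in the middle. Ddit4 rose by 0.30 ± 0.08 in clone 1 (adjusted p 0.00377) and fell in clone 2 (-0.27 ± 0.08, adjusted p 0.00719). Ppp1r15a, the phosphatase subunit Gadd34 that reverses eIF2 phosphorylation, had overlapping libraries in all groups. Its changes were -0.11 ± 0.10 (adjusted p 0.337) and -0.19 ± 0.10 (adjusted p 0.11), and the fit with the replicate block called the second (adjusted p 0.0294, in a range up to 0.506 over the alternatives).

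Most enzymes of amino acid synthesis rose, 6 of 8 in clone 1 with a median change of 0.56 and 7 of 8 in clone 2 with a median of 0.81. Phgdh, the first enzyme of serine synthesis from a glycolytic intermediate, had the largest rise of the 8 in both clones. Control libraries numbered 89.3, 101 and 108 CPM, clone 1 libraries 547, 603 and 612 CPM and clone 2 libraries 589.9, 636 and 618 CPM. The clones overlapped each other and were several times above the control. Phgdh rose 5.92-fold in clone 1 (log2 change 2.57 ± 0.08, adjusted p 7.43e-11) and 6.19-fold in clone 2 (2.63 ± 0.08, adjusted p 6e-11). The gene lies on chromosome 3 (98313170 to 98339990 on the minus strand), where the median gene rose by 0.51 and 0.41. There are 18 annotated genes with transcripts 90.6 to 98.7% identical to Phgdh, and reads shared with them could be split by the counting. Only 2 of the 18 were in the count table, at summed levels of 1.08, 6.73 and 6.36 CPM in the control, clone 1 and clone 2.

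The later steps of serine synthesis did not follow Phgdh in size, and one did not follow in direction. Psat1, the transaminase of the second step, was measured at 552, 596 and 571 CPM in the control libraries, 648, 662 and 699 in the clone 1 libraries and 471, 481 and 462 in the clone 2 libraries. The groups were separate, with the control between the clones. Psat1 rose by 0.22 ± 0.05 in clone 1 (adjusted p 0.00139) and fell in clone 2 (-0.28 ± 0.05, adjusted p 0.000289), on chromosome 19 with medians of -0.45 and -0.46. Psph, the phosphatase of the last step, had 25.3, 26.3 and 26.1 CPM in the control libraries, 33.0, 38.6 and 38.1 in the clone 1 libraries and 58.0, 59.6 and 60.7 in the clone 2 libraries. Clone 2 was highest without overlap, and the rises were 0.50 ± 0.07 (adjusted p 3.42e-05) and 1.20 ± 0.07 (adjusted p 1.76e-08). Exons of Psph overlap an antisense model of Cct6a over 452 bases. Per exon length, the order of the first and second enzyme turned over, but in clone 1 this depended on the lengths used, 2486 bases for Phgdh and 4254 for Psat1. In CPM without length, Phgdh stayed below Psat1 in clone 1 (means of 588 and 670 CPM) and was above it in clone 2 (615 and 471 CPM). A shorter length for Psat1 would lower the ratios below. Phgdh had 39.9 ± 3.78 CPM per kb in the control and Psat1 135 ± 5.23, a ratio of 0.296 ± 0.024 (SD, n = 3). In clone 1 Phgdh had 236 ± 14.2 and Psat1 157 ± 6.16 CPM per kb, a ratio of 1.501 ± 0.057. In clone 2 the levels were 247 ± 9.28 and 111 ± 2.25 CPM per kb, a ratio of 2.23 ± 0.079. Psph was the lowest of the 3 in every group, at 5.99 ± 0.133, 8.44 ± 0.715 and 13.7 ± 0.315 CPM per kb.

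**Figure D4:**
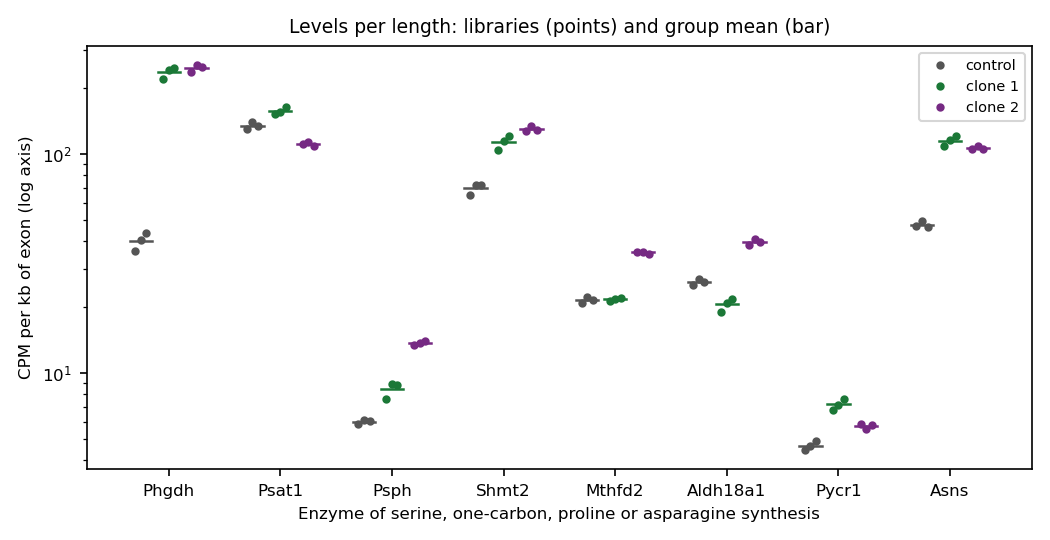
Points are single libraries and bars group means of CPM per kb of exon (log axis) for the 8 enzymes, in the control (grey), clone 1 (green) and clone 2 (purple). Phgdh lies below Psat1 in the control and above it in both clones, and Psat1 and Aldh18a1 have the control between the clones.

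Serine feeds folate-dependent one-carbon metabolism in mitochondria through Shmt2 and Mthfd2. Shmt2, which splits serine into glycine and a one-carbon unit, was at 202, 226 and 223 CPM in the control libraries, 325, 356 and 375 in the clone 1 libraries and 398, 419 and 402 in the clone 2 libraries. Every clone library exceeded the control, with changes of 0.70 ± 0.06 (adjusted p 1.14e-06) and 0.90 ± 0.06 (adjusted p 1.24e-07), beside chromosome 10 medians of 0.41 and 0.39. Mthfd2, which oxidises the one-carbon unit, was at 74.9 ± 2.26 CPM in the control libraries, 75.8 ± 1.14 in the clone 1 libraries and 124 ± 1.27 in the clone 2 libraries (SD, n = 3). It rose in clone 2 (0.72 ± 0.04, adjusted p 3.87e-08), and its change in clone 1 was 0.02 ± 0.04 (adjusted p 0.749), with overlapping libraries. The difference between the clones, 0.71 ± 0.04, passed the test (adjusted p 1.88e-07).

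Asns, which makes asparagine and is a standard readout of Atf4, had 128, 135 and 126 CPM in the control libraries, 298, 317 and 329 in the clone 1 libraries and 289, 297 and 288 in the clone 2 libraries. The clones were far above the control. Asns rose 2.42-fold in clone 1 (log2 change 1.28 ± 0.05, adjusted p 8.43e-10) and 2.24-fold in clone 2 (1.17 ± 0.05, adjusted p 1.93e-09). In proline synthesis, the first enzyme Aldh18a1 went in opposite directions. It was at 103, 109.6 and 106 CPM in the control libraries, 76.9, 85.4 and 88.9 in the clone 1 libraries and 156, 166 and 161 in the clone 2 libraries. The groups did not overlap and the control lay in the middle. Aldh18a1 fell in clone 1 (-0.34 ± 0.06, adjusted p 0.000227) and rose in clone 2 (0.60 ± 0.06, adjusted p 2.31e-06), on chromosome 19 with medians of -0.45 and -0.46. Pycr1, which completes proline in mitochondria, rose by 0.63 ± 0.07 (adjusted p 5.03e-06) and 0.30 ± 0.07 (adjusted p 0.00163). All 8 enzymes lay above the median of their chromosome in both clones.

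Atf4 and its C/EBP partners bind a composite element (CARE), searched for as TGATGNAA on both strands in the same windows. It was present in 7 of the 37 genes (18.9%) and in 4.51% of all genes with a window. The 7 were Herpud1, Nupr1, Chac1, Trib3, Vldlr, Asns and Pycr1, and in Trib3 the letters began 14 bases after the start. The copies before the start of the tested genes are shown because these genes moved in both directions, with the motif in capitals. Reversed copies end in ATCA.
Asns, chr6:7693214-7693243, minus strand: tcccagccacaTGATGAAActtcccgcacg
Pycr1, chr11:120643833-120643862, minus strand: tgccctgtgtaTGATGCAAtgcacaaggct
Chac1, chr2:119351038-119351067, plus strand: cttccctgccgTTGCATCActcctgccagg
Nupr1, chr7:126625562-126625591, minus strand: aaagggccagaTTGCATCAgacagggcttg
Nupr1 and Chac1 share all 8 letters with the copy of Herpud1. Of the 6 tested genes with the motif, 4 rose and 2, Nupr1 and Trib3, fell in each clone. The letters thus stand in the windows of genes that rose and of genes that fell. Phgdh, which rose most among the enzymes, had no match in its window.

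**Figure D5:**
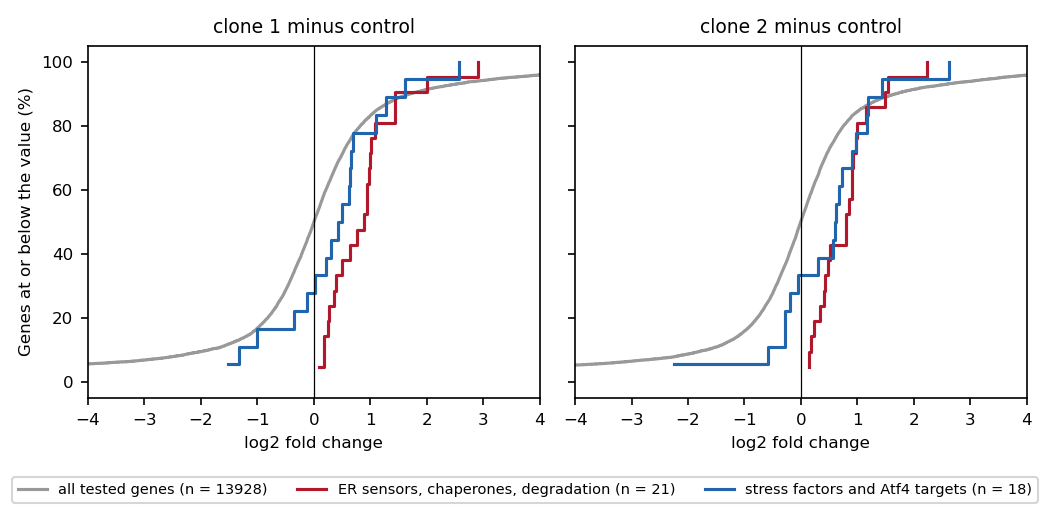
Lines give the share of genes (y axis, %) at or below each log2 fold change (x axis, shown from -4 to 4) for all 13928 tested genes (grey), the 21 genes of the ER arm (red) and the 18 stress factors and Atf4 targets (blue). The red line starts right of 0 in both panels, while the blue line starts at Nupr1, at -1.52 in clone 1 and -2.25 in clone 2.

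The clones also differed from each other. Of the 39 genes, 12 were higher and 15 lower in clone 2 than in clone 1, where 30.1% and 27.5% of all tested genes were called, 57.6% in either direction, and the median difference was -0.08. The libraries of the clones did not overlap for 33 of the 39, beside 64.9% of all tested genes, of which 34.3% were higher and 30.6% lower in clone 2. None of the 39 differed by more than 1 on the log2 scale in glmTreat, which called 8.52% of all tested genes, 4.67% higher and 3.84% lower. That count was also 0 at an unadjusted p under 0.05. None of the 39 was called with a difference of at least 2-fold by edgeR or DESeq2, beside 7.58% higher and 6.80% lower of all tested genes in edgeR. Of the 21 genes of the ER arm, 10 were lower and 4 higher in clone 2, and of the 13 Atf4 targets 3 were lower and 7 higher. Herpud1 (-0.68 ± 0.08, adjusted p 2.1e-05) and Dnajc3 (-0.52 ± 0.10, adjusted p 0.00115) were lower in clone 2. Atf6 was higher in clone 2 by 0.74 ± 0.04 (adjusted p 8.39e-08), Sdf2l1 by 0.54 ± 0.06 (adjusted p 1.12e-05), Psph by 0.70 ± 0.07 (adjusted p 4.67e-06) and Trib3 by 0.73 ± 0.08 (adjusted p 1.28e-05). For Xbp1, Hspa5, Hyou1, Ddit3 and Asns the fit with the replicate block called a difference between the clones that the fit without it did not (adjusted p 0.00535, 0.0169, 0.0140, 0.0144 and 0.0166 with the block), at -0.13, -0.11, 0.11, -0.17 and -0.11 on the log2 scale. The calls of Calr and Atf4 between the clones were each lost in 10 of 17 alternatives, and that of Hsp90b1 in 5, with the highest adjusted p at 0.1513, 0.2536 and 0.1609. The highest adjusted p of Xbp1, Hspa5, Hyou1, Ddit3 and Asns over the alternatives were 0.1781, 0.2464, 0.484, 0.2089 and 0.2586.

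Wider lists of the same pathways were counted in the same way. Of all tested genes, 37.9% rose and 38.6% fell in clone 1, and 37.3% and 37.1% in clone 2. Among 24 other tested ER folding genes, 15 rose and 3 fell in clone 1, against 15 and 2 in clone 2. Pdia5, a further disulfide isomerase, went from 1.15 ± 0.0801 CPM in the control to 16.9 ± 0.748 and 9.71 ± 0.947 CPM in the clones, Uggt2, a paralog of the glucosyltransferase that senses misfolded glycoproteins, from 0.503 ± 0.154 to 3.46 ± 0.638 and 5.62 ± 1.23 CPM, and Fkbp14, a prolyl isomerase of the ER, from 1.19 ± 0.0909 to 8.32 ± 0.246 and 10.8 ± 0.741 CPM (SD, n = 3). These 3 rose by 2.79 or more on the log2 scale in each clone, more than any chaperone described above. Among 29 other genes of ER degradation and translocation, 22 rose and 4 fell in clone 1, against 17 and 4 in clone 2. Sec63, a partner of the translocation channel, rose by 1.34 ± 0.11 and 1.14 ± 0.11, and Sec11c, a signal peptidase, by 1.07 ± 0.05 and 1.27 ± 0.05. Vcp, the ATPase that pulls proteins out of the ER membrane, fell (-0.89 ± 0.05 and -0.94 ± 0.05).

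Among 20 other stress sensors and regulators, 8 rose and 8 fell in clone 1, against 10 and 7 in clone 2, shares near those of all tested genes. Jdp2 rose by 1.42 ± 0.07 and 1.44 ± 0.07 and Creb3l2, a membrane-bound factor related to Atf6, by 1.24 ± 0.06 and 1.21 ± 0.06. Impact, an inhibitor of the amino acid sensor Gcn2, rose by 1.22 ± 0.14 and 0.57 ± 0.14. Atf3, a stress factor downstream of Atf4, fell in clone 1 (-0.99 ± 0.13, adjusted p 3.6e-05) and rose in clone 2 (1.53 ± 0.13, adjusted p 5.43e-07), and Eif2b5, a subunit of the exchange factor of eIF2, likewise fell in clone 1 (-0.32 ± 0.06) and rose in clone 2 (0.32 ± 0.06).

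Of 34 other Atf4 targets tested, 25 rose and 5 fell in clone 1, against 27 and 3 in clone 2. As shares, 73.5% rose and 14.7% fell in clone 1, beside 37.9% and 38.6% of all tested genes. In clone 2 it was 79.4% and 8.82%, beside 37.3% and 37.1%. They include amino acid transporters and tRNA synthetases. Slc1a4, which carries serine and alanine, rose by 2.31 ± 0.08 (adjusted p 2.5e-10) and 1.78 ± 0.08 (adjusted p 2.27e-09). Ddr2, a collagen receptor, rose from 0.846 ± 0.246 CPM to 39.98 ± 3.65 and 11.4 ± 1.38 CPM. Bcat1, a transaminase of branched-chain amino acids, was almost undetected in the control at 0.0179 CPM and reached 4.26 ± 0.409 and 5.40 ± 0.557 CPM. It passed the count filter only through the clone libraries and was named for the size of its change, so its rise is a description alone. Tnfrsf10b, a death receptor, fell in clone 1 (-0.50 ± 0.05) and rose in clone 2 (0.52 ± 0.05), as did Gars, the glycine tRNA synthetase (-0.28 ± 0.05 and 0.35 ± 0.05). Of 25 other genes of serine, folate and proline metabolism, 12 rose and 5 fell in clone 1, against 13 and 4 in clone 2. The shares of this list were 48.0% and 20.0% in clone 1 and 52.0% and 16.0% in clone 2. Aldh1l2, a mitochondrial folate enzyme, rose 23.9-fold and 19.4-fold, from 2.51 ± 0.467 CPM to 59.8 ± 0.695 and 48.6 ± 2.68 CPM. Slc25a32, the mitochondrial folate carrier, rose by 1.09 ± 0.14 and 0.88 ± 0.14, and Aldh4a1, which degrades proline further, by 1.58 ± 0.08 and 1.96 ± 0.08. Prodh, the first enzyme of proline breakdown, rose in clone 1 (1.42 ± 0.16, adjusted p 7.75e-06) and fell in clone 2 (-1.39 ± 0.18, adjusted p 2.33e-05).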

How the data were processed

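Stranded, polyA-enriched RNA of BG2 cells was sequenced in 9 libraries, 3 technical replicates in each of 3 groups. The deposited values are raw counts per gene made by the authors, with fastp, Subread and DESeq2 and the builds mm10 and GRCm38 named in the submitters' processing notes; versions, annotation and strand setting were not given in these sources. Rows were named through Entrez identifiers; 24 of 24594 had no symbol and held at most 0.202% of a library's counts.

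Counts were fitted with edgeR 4.0.16 in R 4.3.3 (filterByExpr, minimum count 10; TMM; quasi-likelihood test, 1 factor of 3 groups, all 9 libraries), 2-sided, with Benjamini-Hochberg adjustment over 13928 genes and calls at adjusted p under 0.05. Standard errors are approximate, the absolute log2 change over the square root of F. Library totals run from 65805296 to 83282841 counts, and the common biological coefficient of variation was 0.0878. No tested gene of the set had a group mean under 6.60 CPM, so none passed the filter only where it was high. This does not hold for the wider lists, in which Bcat1 passed it only through the clones. Nor does it hold for the markers, where Col3a1 passed only through clone 1 and several epithelial markers only through the control. Among other genes with an ERSE, Spats2l passed only through the control. Levels per kb divide CPM by GENCODE M21 exonic length. Promoter windows came from RefSeq. Exon overlaps of 50 bases or more with a gene on the other strand were found for 9 of the genes (Eif2ak3, Hsp90b1, Manf, Pdia6, Syvn1, Atf5, Ddit3, Cebpb and Psph), and transcripts of another gene at least 90% identical for 5 (Calr, Cebpb, Dnajb9, Phgdh and Psat1), whose counts are therefore less certain.

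The genes, their roles and the lists were chosen with earlier results of these data known. Given library by library were, in each role, up to 4 called genes with the largest mean change and each gene called in opposite directions; in each wider list, up to 3 genes with the largest mean change in the same direction and a level of 5 CPM or more in some group, and up to 2 in opposite directions. A gene that met this rule is not reported here; counts include it.

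The 9 correlations of same-numbered libraries were 0.114 to 0.501, against -0.423 to 0.292 for other pairs. Libraries numbered 1 deviated together, at 0.477 to 0.501. Among replicates 2 and 3, same-number values of 0.114 to 0.269 lay within the 0.046 to 0.292 of the other pairs. In all, 6 of 9 libraries had their best match at their own number. The counts thus set replicate 1 apart but do not settle that the numbers pair the libraries, and the replicate block was an alternative only. Technical replicates differed by more than counting noise (chi-square per degree of freedom 5.78 to 55.4). Alternatives were other scalings, DESeq2 1.42.0, other filters, the replicate block, the 2 groups alone, glmTreat, and leaving out libraries. The fit was tested on simulated data.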

Additional observations from a re-analysis of the deposited data

Results flagged for a closer look

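In 3 of the 39 genes (7.69%) the clones were called in opposite directions against the shared control, beside 667 of all 13928 tested genes (4.79%). The difference between the clones passed edgeR's test for these 3, as for all 667, since genes chosen for opposite calls differ between the clones by that choice. Ddit4, an inhibitor of mTORC1, was lower in clone 2 than in clone 1 (log2 difference -0.58 ± 0.08 SE, adjusted p 7.28e-05), after a change of 0.30 in clone 1 and -0.27 in clone 2. Psat1, the second enzyme of serine synthesis, was lower in clone 2 (-0.51 ± 0.05, adjusted p 6.07e-06), after 0.22 and -0.28. Aldh18a1, the first enzyme of proline synthesis, was higher in clone 2 by 0.94 ± 0.06 (adjusted p 1.85e-07), after -0.34 and 0.60. All 3 libraries of each group lay apart from those of the other groups for each of these genes. None of the 3 differed by more than 1 on the log2 scale in glmTreat. The median gene of chromosome 10, which holds Ddit4, changed by 0.41 and 0.39, and that of chromosome 19, which holds Psat1 and Aldh18a1, by -0.45 and -0.46. The part of these medians in the differences was not tested.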

How the results depend on the processing

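Over 17 alternative settings, 1989 changes of the 39 genes were refitted. No change called in the main fit reversed direction, 37 lost their call and 25 gained one. Changes without a call could switch sign. Ppp1r15a in clone 1, for example, was at -0.11 in the main fit and at up to 0.017 in an alternative. Counts of calls stayed within 1.5 times of the main ones in every alternative except the test against a minimum log2 change of 1. With that test 1752 genes rose and 1828 fell in clone 1, of them 7 and 2 of the set, 3 chaperones that rose and 0 that fell, and 2 and 1 Atf4 targets. In clone 2, 1693 rose and 1695 fell, with 7 and 1 of the set, 2 and 0 chaperones, and 3 and 0 Atf4 targets. Between the clones 651 were higher and 535 lower, with 0 and 0 of the set, of the chaperones and of the Atf4 targets. With the replicate block, which pairs libraries of the same number, 33 of the set rose and 4 fell in clone 1, 33 rose and 5 fell in clone 2, and 13 were higher and 19 lower in clone 2 than in clone 1; it changed no other call of these genes than those named with their adjusted p above. Leaving out 1 library at a time gave 32 that rose and 4 that fell in clone 1, 31 to 33 and 4 to 5 in clone 2, and 10 to 13 and 13 to 19 between the clones; groups left with 2 libraries share the spread of all groups. Without replicate 2 of clone 2, the difference of Atf4 between the clones was 0.0896 (adjusted p 0.2536). Depth did not limit these genes other than Vldlr, but the technical replicates limit what the p-values cover.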

Other observations

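Chaperones outside the ER were counted as well. Of 18 genes of cytosolic and mitochondrial heat shock, 7 rose and 8 fell in clone 1, against 9 and 5 in clone 2, with medians of -0.10 and 0.16. Of all tested genes, 37.9% rose and 38.6% fell in clone 1 and 37.3% and 37.1% in clone 2, near the shares of this list in clone 1. Hspb1, a small heat shock protein, rose by 1.25 ± 0.10 in clone 1 (adjusted p 5.17e-07) and by 2.64 ± 0.11 in clone 2 (adjusted p 1.06e-09), while Hspb8, another member of that family, fell (-2.13 ± 0.10, adjusted p 2.69e-09, and -1.46 ± 0.09, adjusted p 5.82e-08). Hspa9, the Hsp70 of mitochondria, rose by 0.58 ± 0.05 and 0.80 ± 0.05. Hspe1, the mitochondrial co-chaperonin, fell in clone 1 (-0.29 ± 0.05) and rose in clone 2 (0.39 ± 0.05). Dnajb1, a cytosolic Hsp40, rose in clone 1 (0.14 ± 0.05) and fell in clone 2 (-0.33 ± 0.05), and its call in clone 1 was lost in 8 of 17 alternatives.

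Genes outside the set with the same promoter letters were counted as a description. Of 29 other genes with an ERSE in the window, 10 were tested, of which 3 rose and 4 fell in clone 1, against 2 and 5 in clone 2. So few genes allow no statement on a difference from the shares of all tested genes given above. Pan2 (log2 changes 0.66, adjusted p 5.57e-06, and 0.20, adjusted p 0.025) and Alg12 (0.48, adjusted p 2.1e-05, and 0.29, adjusted p 0.0012), a mannosyltransferase of the ER, rose in both clones. Ero1b, an oxidase of the ER, rose in clone 1 (log2 change 1.14, adjusted p 3.66e-07), and in clone 2 its change was -0.12 (adjusted p 0.258). Acacb, Calr4, Gm6566 and Spats2l fell in both, Calr4, a relative of calreticulin, by log2 changes of -4.54 and -2.66 from 3.42 CPM. Spats2l was at 2.41 CPM in the control and undetected in both clones. It passed the count filter only through the control, so its fall is a description alone. Adcy3 fell in clone 2 (-0.64, adjusted p 0.0138), and Hnrnpa3 and Derl3 were called in neither clone. Of 1212 other genes with the Atf4 motif, 298 were tested, with 114 risen and 112 fallen in clone 1 and 116 and 107 in clone 2, near the shares of all tested genes. These counts were made after the values of the set were seen and were not tested.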
